A study of Caenorhabditis elegans with 24 samples.

Results

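Untreated adults of a glp-1 point mutant (strain JK1107) were compared with untreated adults of the wild-type strain N2 across all genes of a Caenorhabditis elegans expression array. The samples were chosen by their titles: 4 glp-1 controls and 4 N2 controls, 8 of the 24 arrays in the study. The other 16 arrays held irradiated animals of both strains and animals of an xpa-1 mutant. They entered the joint scaling, the year term, the estimate of the spread, the choice of probe set per gene and a brightness filter used for chromosomes. In addition, irradiated glp-1 and irradiated N2 arrays are set beside the main result once. All animals were young adults grown at 25°C and taken 24 h after the vulval crescent stage of the fourth larva, with no UVC exposure in the 8 arrays compared. RNA came from whole animals. Each strain was measured in 2007 with 2 arrays, from 500 pg of RNA amplified with a TargetAmp kit. In 2008 each had 2 arrays, from 100 ng of RNA labelled with an Affymetrix two-cycle kit. Year was a block in the main comparison, while differences between the years were tested with a mean per group and year. Whether the replicates of a year were separate cultures is not stated in the labels, and the p-values therefore measure only the spread among these samples, which may be technical.

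The glp-1 gene encodes a Notch receptor on the surface of germ cells. Signal from the somatic distal tip cell through this receptor keeps germ line stem cells dividing, and without it the cells enter meiosis early and the germ line does not expand. The strain is known to be temperature sensitive, so animals raised at the restrictive temperature make few or no germ cells, oocytes or embryos but keep a somatic gonad and the other somatic tissues. In a whole-animal RNA sample, fewer cells of a type and less RNA per cell cannot be told apart. Adult N2 hermaphrodites of this age can also carry embryos, which belong to the RNA of the whole animal. Where equal amounts of RNA are labelled, a smaller germ line share means a larger share for each somatic transcript.

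Levels are given as log2(normalized intensity + 32), on which 5.00 is the lowest possible value and 14 was the highest value seen. Where 4 values are given for a group they are in the order 2007 replicate 1, 2007 replicate 2, 2008 replicate 1 and 2008 replicate 2. Differences are glp-1 controls minus N2 controls with the standard error (SE) of the limma fit, and "rose" or "fell" marks genes with a Benjamini-Hochberg adjusted p under 0.05 over all 22548 probe sets. To ask which genes exceeded a uniform rise of somatic RNA, each array was also centred on the median of 72 soma reference genes, made up of 35 body wall muscle, 10 pharynx and 27 neuron genes. That median was 9.73, 10.10, 10.18 and 9.93 in glp-1 controls and 9.38, 8.77, 9.50 and 9.25 in N2 controls, so every glp-1 array lay above every N2 array. The 72 genes themselves differed by a median of 0.70, with quartiles of 0.30 and 1.17. A gene that rose on the main scale and again after this centring is called above the soma reference. The deposited intensities differed in scale between the years: 8.27% to 18% of probe sets exceeded 100 in the 4 control arrays of 2007 and 45.0% to 55.9% in those of 2008.

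Of 17118 genes, 3612 rose (21.1%) and 3185 fell (18.6%) in glp-1 controls. The same groups without any scaling between arrays gave 1638 rises and 3954 falls, so 29.3% of calls were rises as deposited against 53.1% after normalization. Of the genes that rose, 1395 (8.15% of all genes) stood above the soma reference, which was 38.6% of the rises. The 4 arrays of glp-1 controls all lay above the 4 of N2 controls for 2793 genes (16.3%) and all below them for 2646 genes (15.5%). The falls were the deeper changes. A difference beyond 4 on the log2 scale was seen for 301 falls and 18 rises, while differences beyond 1 numbered 2552 falls and 2967 rises. Of the 803 genes that averaged at least 11 in N2 controls, 438 fell and 93 rose, and 62 of them were under 7 in every glp-1 array. No gene averaged at least 11 in glp-1 controls and stayed under 7 in every N2 array (0 genes). The levels of all genes in the 2 groups are plotted here.

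**Figure D1:**
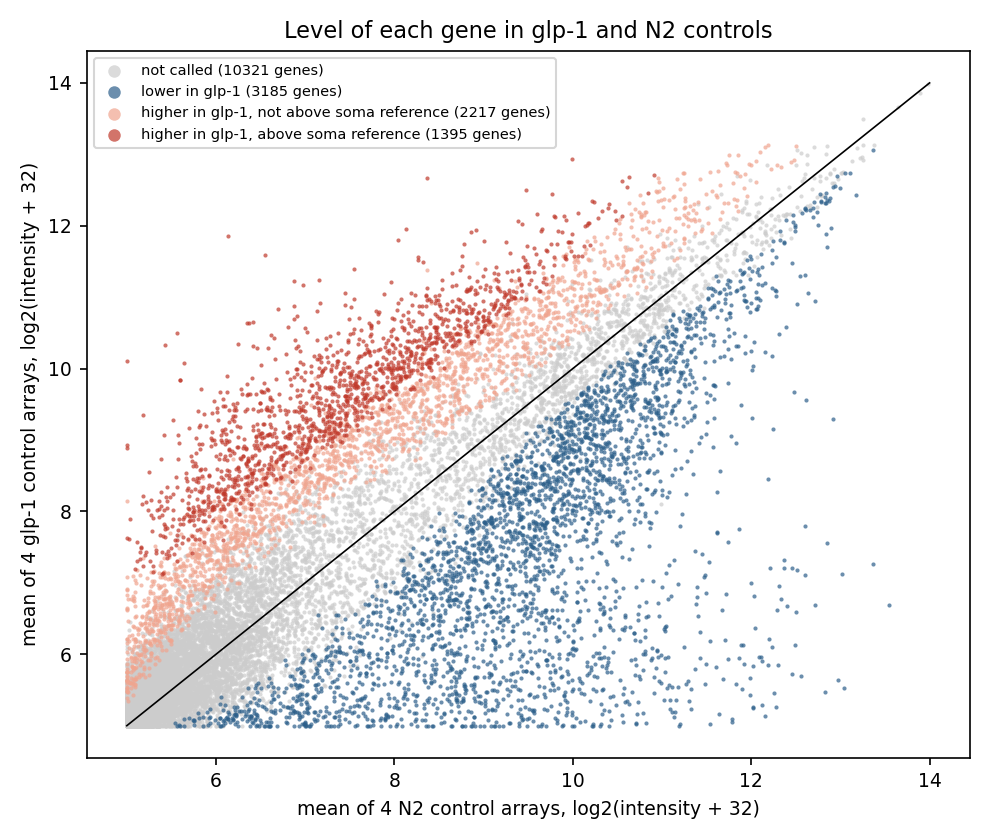
Mean level of each of 17118 genes in 4 glp-1 control arrays (vertical axis) and 4 N2 control arrays (horizontal axis), both log2(intensity + 32), with 1 point per gene and colours for the call. The 3185 falls include a fan of points that reach 11 to 13 in N2 controls and lie near the lowest value of 5 in glp-1 controls, while the 3612 rises follow the diagonal as a band above it.

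The mutated gene was checked first. The glp-1 transcript measured 6.86, 5.11, 5.58 and 5.00 in glp-1 controls, against 10.40, 10.56, 10.58 and 10.56 in N2 controls. It fell by 4.89 ± 0.40 (SE, n = 4 arrays each; limma, adjusted p = 6.27e-09), and the groups did not overlap. A point mutation leaves the transcript readable by the probes, so the value does not check the lesion itself. The other germ line and oocyte markers (pgl-1, glh-1, htp-3, syp-1, rme-2, oma-1 and cbd-1) all fell as well, and none of their groups overlapped. The other genes of the stem cell pool and of entry into meiosis shared the direction: of 18 measured, 13 fell and 0 rose, with a median difference of -3.40 where the median of all genes was 0.07. The translational repressor gld-1, which acts as stem cells enter meiosis, measured 5.28, 6.68, 5.31 and 6.21 in glp-1 controls and 11.39, 11.73, 11.29 and 11.59 in N2 controls. The PUF-family RNA-binding protein gene fbf-1, needed to keep germ cells mitotic, fell by 3.12 ± 0.20, and gld-3, a Bicaudal-C homologue, fell by 5.26 ± 0.36.

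Genes of meiotic chromosomes fell nearly without exception. Of 34 measured, 33 fell and 0 rose, with a median difference of -3.05. The list median lay at 5.72, 5.98, 5.55 and 5.76 in glp-1 controls and at 9.63, 9.66, 9.24 and 9.38 in N2 controls. The axis protein gene htp-3 was at the lowest possible value in 3 of 4 glp-1 arrays (5.00, 5.00, 5.00 and 5.19) and measured 10.19, 10.65, 10.75 and 10.66 in N2 controls, a fall of 5.52 ± 0.19 (limma, adjusted p = 4.63e-14). The synaptonemal complex gene syp-1 fell by 3.55 ± 0.18, and sun-1, whose product sits in the inner nuclear membrane and links paired chromosomes to the cytoskeleton, fell by 5.58 ± 0.25. Since several of these transcripts sat at the floor in glp-1 controls, their differences understate the ratio of the transcripts.

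Germ granules are the perinuclear bodies in which germ cells keep small RNA and translation factors. All 28 measured genes of germ granules and small RNA pathways fell, with a median difference of -3.14 on the log2 scale. The Vasa-like helicase genes showed the range: glh-3 was at 5.00 in each of the 4 glp-1 arrays and at 8.31, 9.13, 8.81 and 8.93 in N2 controls, while glh-1 still measured 9.58, 8.60, 7.54 and 8.55 in glp-1 controls, against 12.16, 12.20, 11.08 and 11.16 in N2 controls. They fell by 3.79 ± 0.27 and by 3.08 ± 0.24, and in neither did the groups overlap. The P granule gene pgl-1 fell by 4.30 ± 0.66.

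Among the 21 measured Argonaute genes, which encode the proteins that carry small RNAs, 13 fell and 2 rose. The secondary small RNA Argonaute wago-1 fell by 6.56 ± 0.26, the Piwi-class prg-2 fell by 5.72 ± 0.39 and the nuclear Argonaute hrde-1 fell by 4.25 ± 0.36. The Argonaute sago-1 went the other way: it measured 10.94, 10.65, 10.79 and 11.01 in glp-1 controls and 9.40, 9.22, 9.16 and 9.34 in N2 controls. This rise of 1.57 ± 0.16 (limma, adjusted p = 1.24e-07) stood above the soma reference, and vsra-1 rose by 1.08 ± 0.18 without standing above it.

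Transcripts of oocytes and of the egg gave the widest separation between the strains. The 16 measured genes of the eggshell, egg surface and yolk uptake had a list median of 6.14, 5.93, 6.38 and 6.78 in glp-1 controls and of 12.16, 12.55, 12.37 and 12.51 in N2 controls. Of these 14 fell and 0 rose, with a median difference of -5.75. The paired egg membrane proteins that sperm need for entry both fell: egg-1 measured 6.06, 5.26, 5.45 and 6.65 in glp-1 controls, against 11.79, 12.02, 12.45 and 12.51 in N2 controls, and egg-2 fell by 5.25 ± 0.27. Of 32 genes for maternal RNA regulators and cell polarity, 30 fell and 0 rose (median -3.81). The zinc finger gene oma-2, which oocytes need to mature, measured 5.00, 5.00, 5.00 and 5.65 in glp-1 controls and 10.77, 11.05, 12.34 and 12.41 in N2 controls. The oocyte regulator lin-41, which encodes a TRIM-NHL protein, fell by 3.77 ± 0.20.

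The vitellogenin genes, which encode yolk proteins made in the intestine, were not among the falls. None of the 5 measured was called in either direction (0 higher and 0 lower by limma, with a list median difference of 0.01). Their list median was 13.74, 13.68, 13.61 and 13.61 in glp-1 controls and 13.68, 13.68, 13.68 and 13.56 in N2 controls, near the top of the scale in both strains, where a difference may be compressed. The gene for the oocyte's yolk receptor, rme-2, measured 5.00, 5.80, 5.00 and 6.74 in glp-1 controls and 12.98, 13.03, 12.90 and 12.99 in N2 controls.

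The machinery of dividing cells fell as a block. All 32 measured DNA replication genes fell (median -4.06), and of 48 genes of mitosis, kinetochore and spindle 45 fell and 0 rose (median -3.63). The replicative helicase subunit gene mcm-7 measured 6.31, 5.25, 6.38 and 6.59 in glp-1 controls, against 12.54, 12.80, 12.34 and 12.31 in N2 controls. The Aurora B kinase gene air-2 fell by 4.44 ± 0.24, and the cyclin B gene cyb-1 by 5.22 ± 0.29. As background, somatic cells of adult worms no longer divide, and the dividing cells of an N2 adult are those of its germ line and embryos. Of 21 regulators of germ line chromatin, 18 fell and 0 rose, with a smaller median of -1.86. In this list xnd-1, which distributes meiotic crossovers, fell by 5.07 ± 0.24, lin-54, a DNA-binding subunit of the DREAM complex, by 5.39 ± 0.36, the chromodomain gene mrg-1 by 2.25 ± 0.14 and the histone demethylase gene rbr-2 by 1.53 ± 0.12.

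Sperm transcripts did not follow the rest of the germ line. Of 31 measured genes for sperm proteins, 3 fell and 3 rose, and 23 were under 7 in both groups. The list median difference was -0.02. The regulator of the sperm transcription programme, spe-44, measured 5.00, 6.63, 5.63 and 6.11 in glp-1 controls and 7.54, 8.65, 7.69 and 8.08 in N2 controls, and fell by 2.15 ± 0.31 (limma, adjusted p = 1.26e-05). The vesicle sorting gene spe-39 fell by 1.52 ± 0.23. The sperm-specific family gene ssp-10 rose by 2.00 ± 0.30 and the trypsin inhibitor-like gene swm-1 by 1.59 ± 0.19, both above the soma reference.

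The major sperm proteins, which build the sperm cytoskeleton, overlapped between the strains. Of the 23 measured genes 1 fell and 0 rose. Their list median was 5.79, 8.08, 7.33 and 6.63 in glp-1 controls and 10.35, 8.33, 5.82 and 6.35 in N2 controls, so the highest values were the 2 N2 arrays of 2007 and the lowest were a glp-1 array of 2007 and an N2 array of 2008. The list median difference was -0.55 in the main scaling and 0.03 with quantile normalization within each year. The gene that fell, msp-65, measured 6.40, 8.65, 5.00 and 5.00 in glp-1 controls and 11.74, 9.39, 5.00 and 7.17 in N2 controls, and the groups overlapped. It was no longer called with median centring, without the year term, or without N2 replicate 1 of 2007, N2 replicate 2 of 2008 or glp-1 replicate 1 of 2007.

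The levels that remained in glp-1 controls were low but not uniform. Over the 219 genes of the germ line lists that fell, the median level was 6.26, 6.58, 6.22 and 6.51 in the 4 glp-1 arrays. In these arrays 76, 91, 72 and 85 of the 219 genes still measured at least 7. Of the 219 genes, 63, 78, 29 and 49 had their highest glp-1 value in the 4 arrays, so 2007 replicate 2 was highest most often, and the 32 DNA replication genes gave 11, 11, 5 and 5. The eggshell genes differed from this: of the 14 that fell, 9 had their highest glp-1 value in the 2008 replicate 2 array. In that array cpg-2, for an eggshell proteoglycan, reached 8.47 and cbd-1, for a chitin-binding eggshell protein, reached 6.81, where the other 3 glp-1 arrays gave 5.00 to 7.05 for cpg-2 and 5.00 to 5.07 for cbd-1. In N2 controls cpg-2 measured 13.26 to 13.68 and cbd-1 12.58 to 12.96. The medians of several of these lists are plotted by array with those of somatic and general classes.

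**Figure D2:**
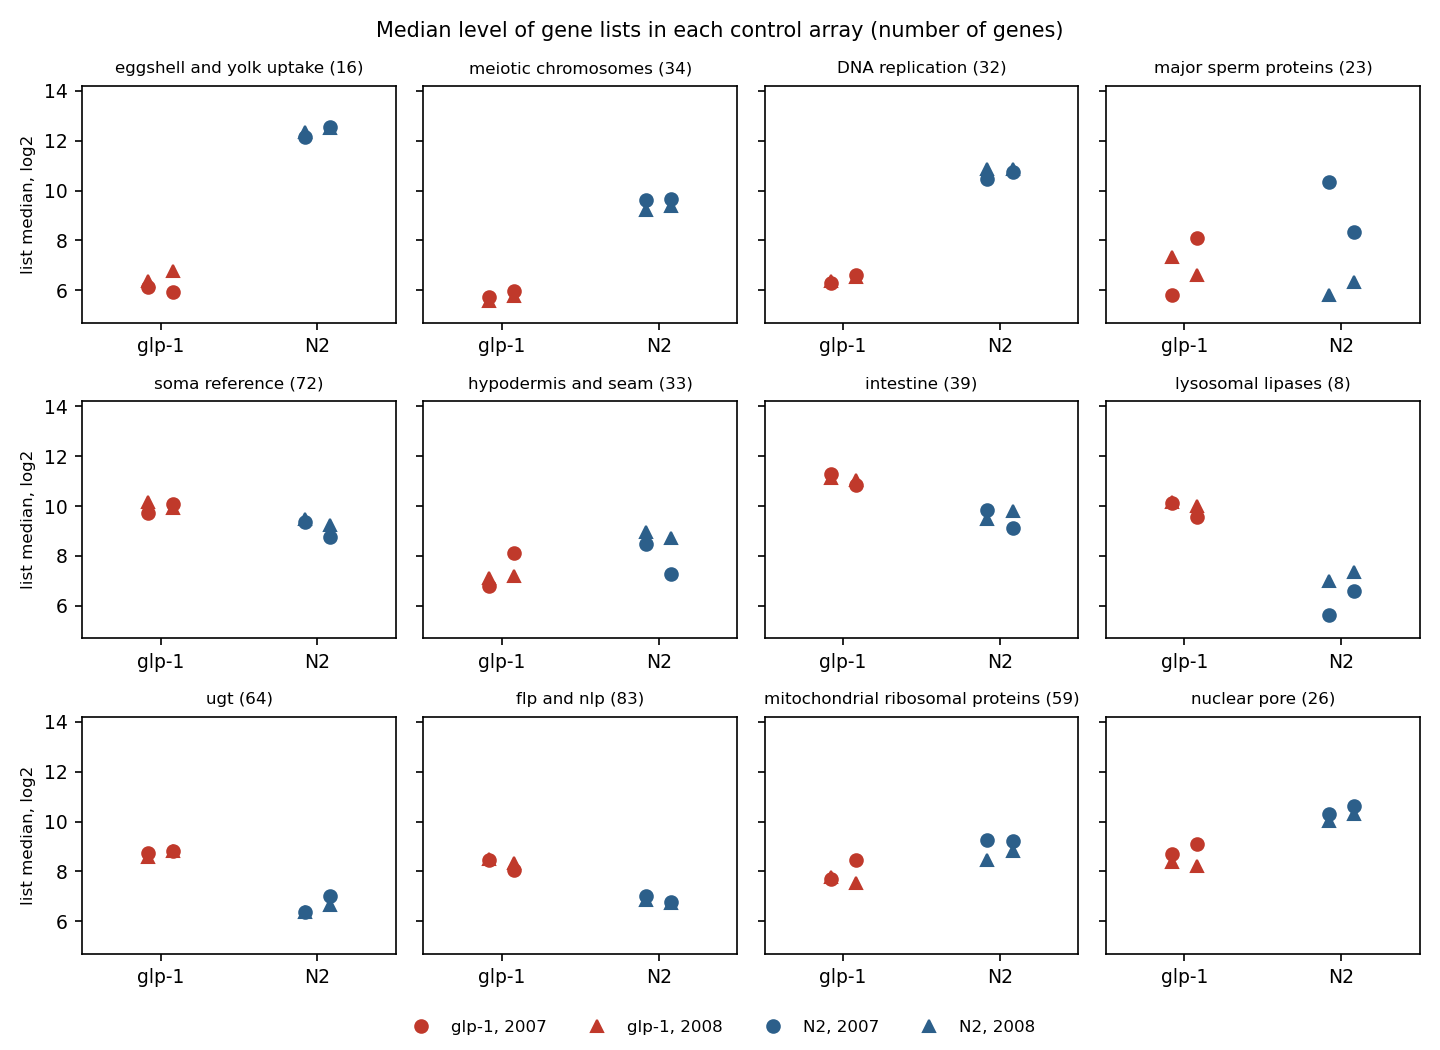
Median level of 12 gene lists (number of genes in brackets) in each glp-1 and N2 control array, on the log2(intensity + 32) scale, with circles for 2007 and triangles for 2008. The eggshell list lies between 5.93 and 6.78 in glp-1 controls and between 12.16 and 12.55 in N2 controls, the major sperm protein list overlaps between the strains, and the intestine, lipase, ugt and neuropeptide lists are higher in every glp-1 array.

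Body wall muscle, pharynx and neuron genes were called higher about as often as all genes, at 24.3%, 23.8% and 26.5% of their lists against 21.1% over all genes, and their medians lay above the 0.07 of all genes. Of 37 body wall muscle genes 9 rose and 3 fell (median 0.62), of 21 pharynx genes 5 rose and 1 fell (median 0.37), and of 49 neuron genes 13 rose and 1 fell (median 0.58). The median difference of the pharynx genes was 0.56 in 2007 and -0.08 in 2008, and their median level lay lower in both glp-1 arrays of 2008 (7.30 and 7.12) than in both N2 arrays of that year (8.30 and 7.61). Over both years it turned to -0.50 as deposited, to -0.09 with median centring and to -0.05 with quantile normalization within each year, and the neuron median was -0.00 as deposited. The body wall myosin gene unc-54 measured 10.27, 10.74, 12.29 and 11.85 in glp-1 controls and 9.86, 9.28, 11.80 and 11.41 in N2 controls, a difference of 0.70 ± 0.36 that did not pass the test (limma, adjusted p = 0.148). Beside 8.15% of all genes, 8.11% of muscle, 4.76% of pharynx and 8.16% of neuron genes stood above the reference they helped to set. These were 3 genes in muscle, 1 in pharynx and 4 in neurons. In muscle they included atn-1, for alpha-actinin (1.49 ± 0.22), and unc-98, for a zinc finger protein of the sarcomere (2.92 ± 0.51). In neurons they included unc-64, for the synaptic vesicle fusion protein syntaxin (1.97 ± 0.26), and bas-1, for the decarboxylase that makes serotonin and dopamine (1.76 ± 0.21).

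Some genes on somatic lists fell. The tyrosine decarboxylase gene tdc-1, which makes tyramine in a few neurons and in the gonadal sheath, measured 5.1, 5.15, 6.63 and 6.07 in glp-1 controls and 9.95, 10.25, 10.37 and 10.15 in N2 controls (a fall of 4.44 ± 0.32; limma, adjusted p = 1.23e-09). Of 33 genes of hypodermis and seam cells, 9 fell and 4 rose (median 0.02, or -0.35 as deposited). They included ptr-2, for a Patched-related membrane protein, which fell by 5.01 ± 0.30, nhr-23, for a nuclear receptor of the moulting cycle, which fell by 2.67 ± 0.29, and lin-26, for a zinc finger factor of epithelial fate, which fell by 1.83 ± 0.20. The hypodermal collagen gene dpy-7 was not called: it measured 5.00, 5.00, 5.00 and 7.19 in glp-1 controls and 5.11, 5.00, 8.58 and 8.71 in N2 controls, so its highest values were the N2 arrays of 2008. Whether the transcripts that fell came from hypodermis, germ line or embryos was not tested.

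The somatic gonad remains in these animals. Of 34 genes of the gonad, sheath, spermatheca and vulva, 14 rose (41.2%, beside 21.1% of all genes), with a list median of 0.35. In the same list 6 genes fell (17.6%, near the 18.6% of all genes). The basement membrane gene nid-1, for nidogen, rose by 1.65 ± 0.21 and stood above the soma reference. The forkhead gene fkh-6, a factor of gonad development, was called at 1.4 ± 0.42, but its groups overlapped, and it was not called without N2 replicate 1 of 2007 or without glp-1 replicate 1 of 2007. The beta-catenin gene sys-1 was at 5.00 in all 4 glp-1 arrays and measured 7.64, 7.94, 8.91 and 8.93 in N2 controls.

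The gap junctions between germ cells and sheath cells held calls in both directions. In this structure germ cells contribute the innexins encoded by inx-14 and inx-22, and sheath cells contribute those encoded by inx-8 and inx-9. Measured in glp-1 controls, inx-22 had 7.73, 7.43, 5.96 and 5.83, against 10.42, 11.15, 10.77 and 10.97 in N2 controls, and inx-14 fell by 3.78 ± 0.27. The sheath partners were named after their values were seen: inx-8 measured 12.16, 11.82, 11.59 and 11.88 in glp-1 controls and 11.11, 11.39, 10.57 and 10.70 in N2 controls, and inx-9 measured 8.91, 8.60, 9.43 and 9.66 in glp-1 controls and 8.13, 7.71, 7.50 and 7.64 in N2 controls. Both rose (0.92 ± 0.17 and 1.41 ± 0.25; limma, adjusted p = 1.56e-04 and 1.42e-04), neither above the soma reference. All 4 innexin genes separated the groups without overlap.

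The median difference of intestinal genes was above that of the reference tissues. Of 39 measured, 27 rose and 0 fell, 11 of them above the soma reference, with a median of 1.11. The list median was 11.30, 10.84, 11.13 and 11.06 in glp-1 controls and 9.84, 9.14, 9.48 and 9.80 in N2 controls, with no overlap. The gut esterase gene ges-1 averaged 10.96 ± 0.14 in glp-1 controls and 8.49 ± 0.615 in N2 controls (SD, n = 4 arrays each), with no overlap (a rise of 2.47 ± 0.30; limma, adjusted p = 1.66e-06). The GATA factor gene elt-2, which directs intestinal transcription, measured 9.97, 9.94, 9.21 and 9.74 in glp-1 controls and 8.05, 7.59, 8.39 and 8.05 in N2 controls. Without scaling elt-2 differed by 0.71 and did not pass the test. The metallothionein gene mtl-1 rose by 3.86 ± 0.45 and itr-1, for the receptor that releases calcium in the gut's defecation rhythm, by 1.82 ± 0.19. Of 21 genes of coelomocytes, the excretory system and glia, 10 rose and 0 fell (median 0.99). Above the soma reference among them were pgp-12, a transporter gene of the excretory cell (2.98 ± 0.60), and fig-1, a gene of sensory organ glia (2.42 ± 0.29).

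Lists of lipid breakdown and storage differed in how many of their genes stood above the soma reference. Of 8 measured lysosomal lipase genes 7 rose and 0 fell, 4 of them above the soma reference, and the list median was 10.11, 9.58, 10.18 and 10.02 in glp-1 controls and 5.64, 6.59, 6.98 and 7.36 in N2 controls. The lipase gene lipl-4, known for its part in the long life of germ line-less worms, measured 9.83, 8.37, 9.71 and 9.44 in glp-1 controls, against 5.22, 7.24, 6.54 and 5.85 in N2 controls (a rise of 3.13 ± 0.42; limma, adjusted p = 4.99e-06). Its relatives lipl-1 and lipl-2 rose by 2.82 ± 0.35 and 3.78 ± 0.46, and lipl-7 rose by 1.31 ± 0.11 without standing above the reference. Of 33 genes of fatty acid desaturation, elongation and fat droplets, 19 rose and 3 fell (median 0.72), and 4 stood above the soma reference (12.1%, beside 8.15% of all genes), with a soma-centred median of -0.04. The palmitoyl-CoA desaturase gene fat-5 measured 11.79, 11.12, 12.24 and 12.67 in glp-1 controls and 8.45, 6.23, 9.08 and 8.74 in N2 controls. The diacylglycerol acyltransferase gene dgat-2, for the last step of triglyceride synthesis, measured 10.61, 10.45, 11.25 and 11.61 in glp-1 controls and 6.77, 7.96, 8.78 and 8.78 in N2 controls. In both genes the groups did not overlap.

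The lipid regulator gene sbp-1, the worm's SREBP, rose by 1.78 ± 0.22 and stood above the soma reference. Against the direction of that list, atgl-1, for the lipase of fat droplets, fell by 1.16 ± 0.34, and the lipid-binding protein gene lbp-9 fell by 1.66 ± 0.44. Of 42 genes of peroxisomal and mitochondrial beta-oxidation, 21 rose and 2 fell, 11 above the soma reference (median 0.72). The peroxisomal acyl-CoA oxidase gene acox-1.2 measured 11.01, 11.31, 10.26 and 9.35 in glp-1 controls and 8.74, 9.23, 6.42 and 6.54 in N2 controls, and cpt-5, for a carnitine palmitoyltransferase, rose by 2.92 ± 0.26. The acyl-CoA dehydrogenase gene acdh-13 fell by 1.66 ± 0.22. Of 41 genes for lysosomal proteases and saposins, 25 rose and 0 fell, 8 above the soma reference, led by the aspartyl protease gene asp-8 (3.46 ± 0.44) and the saposin gene spp-24 (2.53 ± 0.30).

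Genes known as regulators of the longevity of germ line-less animals had a median of 0.10 (-0.18 as deposited), near the 0.07 of all genes. Of 30 measured, 10 rose (33.3%, beside 21.1% of all genes) and 6 fell (20%, near the 18.6% of all genes). The steroid receptor gene daf-12 measured 10.78, 10.79, 10.69 and 10.83 in glp-1 controls, against 9.92, 9.05, 8.83 and 8.76 in N2 controls, and stood above the soma reference. The heat shock factor gene hsf-1 measured 7.97, 6.43, 6.07 and 6.17 in glp-1 controls and 9.0, 9.26, 9.0 and 8.79 in N2 controls, a fall of 2.35 ± 0.36 (limma, adjusted p = 2.62e-05). The Max-like factor gene mxl-1 fell by 1.89 ± 0.24.

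Among 34 genes listed as raised by the FOXO factor DAF-16, 24 rose and 3 fell, and 13 stood above the soma reference (median 1.56). The list median was 10.57, 9.90, 10.31 and 10.72 in glp-1 controls and 8.73, 8.23, 8.66 and 8.60 in N2 controls. The trehalose synthase gene tps-2 measured 11.61, 11, 11.26 and 11.34 in glp-1 controls and 9.45, 8.95, 8.91 and 8.65 in N2 controls. The falls included lea-1, for a desiccation protein, which fell by 3.05 ± 0.32, and sip-1, for a small heat shock protein.

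Families of enzymes that act on foreign and small molecules included the 2 with the highest medians. The 113 symbol families with at least 15 measured genes were ranked by their median on the soma-centred scale. Centring moves the difference of every gene by the same amount, so the order was that of the main scale. The carboxylesterases (cest) came highest: of 32 genes, 27 rose and 0 fell, 15 above the soma reference, with a median of 1.97. The esterase gene cest-13 measured 11.41, 11.25, 10.96 and 11.24 in glp-1 controls and 7.10, 8.31, 8.16 and 8.30 in N2 controls (a rise of 3.25 ± 0.25; limma, adjusted p = 3.13e-09). Next was ugt, the UDP-glucuronosyltransferases that conjugate sugars to lipophilic molecules, with 40 of 64 genes up, 1 down, 25 above the soma reference and a median of 1.6. In this family ugt-41 measured 10.63, 9.91, 10.83 and 11.16 in glp-1 controls and 5.00, 6.80, 6.36 and 7.30 in N2 controls, and ugt-23 rose by 2.15 ± 0.18. The next places were held by flp (median 1.51), spp (1.4), ttr (1.24), best (1.2) and nlp (1.2), while gst ranked 14 and cyp ranked 16. Of 73 cytochrome P450 genes 37 rose and 3 fell, 22 above the soma reference, and of 40 glutathione S-transferase genes 21 rose and 1 fell, 9 above it. The rises included cyp-37A1 (2.45 ± 0.20), gst-29 (3.35 ± 0.28) and gst-42 (2.57 ± 0.29).

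The 3 cytochrome P450 genes that fell belonged to a single subfamily, cyp-31A, which is known for making a lipid layer of the eggshell. Of these cyp-31A5 measured 5.34, 5.72, 6.31 and 5.68 in glp-1 controls and 8.90, 9.38, 9.44 and 10.04 in N2 controls. The others, cyp-31A2 and cyp-31A3, fell by 2.54 ± 0.36 and 3.31 ± 0.29. These genes are close in sequence and a probe set may read more than 1 of them.

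Genes of defence and of secreted proteins also rose. Of 43 lysozyme and antimicrobial peptide genes, 22 rose and 0 fell (median 1.28), and 6 stood above the soma reference. The antibacterial factor gene abf-2 measured 11.37, 9.95, 10.47 and 10.83 in glp-1 controls, against 5.00, 5.56, 7.58 and 7.54 in N2 controls. Of 32 CUB-like and infection response genes, 21 rose and 1 fell, 12 above the soma reference (median 1.52), with irg-5 at 11, 11.17, 10.24 and 12.28 in glp-1 controls and at 5.76, 7.40, 7.47 and 7.25 in N2 controls. Of 23 pals genes, a family that responds to intracellular pathogens, 9 rose and 0 fell (median 0.69), pals-23 by 2.88 ± 0.40. The transthyretin-related ttr family, secreted proteins of mostly unknown role, had 25 of 40 genes up, 1 down and 14 above the soma reference. Of these ttr-48 rose by 2.29 ± 0.14 and ttr-46 by 2.04 ± 0.16.

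C-type lectins, secreted carbohydrate-binding proteins of which many answer infection, rose in 58 of 220 genes (26.4%, beside 21.1% of all genes) and fell in 5, and 150 were under 7 in both groups. Of the genes that rose 32 stood above the soma reference, and clec-62 measured 11.33, 11.50, 11.88 and 12.14 in glp-1 controls and 9.15, 9.04, 9.83 and 9.91 in N2 controls. The falls were few and deep. In glp-1 controls clec-87 measured 7.20, 7.39, 6.65 and 7.83, against 13.32, 13.42, 13.32 and 13.39 in N2 controls, and clec-88 and clec-91 fell by 6.46 ± 0.47 and 6.12 ± 0.37.

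Neuropeptide genes had a median difference of 1.34, beside 0.58 for the neuron list. Of 83 flp and nlp genes 54 rose and 0 fell, 24 of them above the soma reference. The list median was 8.46, 8.07, 8.51 and 8.36 in glp-1 controls and 7.02, 6.76, 6.87 and 6.74 in N2 controls, with no overlap. The peptide gene nlp-40, which the intestine secretes to time defecation, measured 11.33, 11.49, 11.40 and 11.48 in glp-1 controls and 9.24, 9.44, 9.62 and 9.71 in N2 controls (a rise of 1.93 ± 0.13; limma, adjusted p = 2.88e-10). The FMRFamide-like genes flp-10 and flp-18 rose by 2.13 ± 0.24 and 1.67 ± 0.26, both above the soma reference. Of 24 insulin-like genes 6 rose (25%, near the 21.1% of all genes) and 1 fell, and 18 were under 7 in both groups. Among the rises, ins-7 measured 10.26, 9.57, 10.23 and 10.19 in glp-1 controls and 7.93, 7.58, 8.17 and 7.76 in N2 controls, and daf-28 rose by 1.45 ± 0.29, not above the reference. Serpentine chemoreceptor genes were mostly dim, with 1246 of 1275 under 7 in both groups. Of them 56 rose (4.39%) and 5 fell (0.392%), both under the shares of all genes.

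Several families of related structure did not move together. Over all genes 21.1% rose and 18.6% fell. In the MATH-domain families 18 of 47 math genes rose (38.3%) and 0 fell. Of 38 bath genes 3 rose (7.89%) and 16 fell (42.1%). The steepest bath fall was that of bath-2, at 5.17, 5.76, 5.00 and 5.17 in glp-1 controls and 8.97, 9.44, 9.34 and 9.45 in N2 controls. The F-box families serve the same purpose in another ligase. Of 171 fbxa genes 54 rose and 25 fell, and of 95 fbxb genes 0 rose and 12 fell. Of 44 fbxc genes 3 rose and 12 fell. The shares that fell in fbxa and in fbxb were both under the 18.6% of all genes, and that of fbxc was above it. The fall of fbxa-215, at 7.24, 5.00, 6.57 and 6.67 in glp-1 controls and 11.97, 12.16, 12.01 and 12.03 in N2 controls, was 5.67 ± 0.41. Most members of these families were dim, with 103 of 171 fbxa, 90 of 95 fbxb and 31 of 47 math genes under 7 in both groups. The lack of rises in fbxb therefore rests mostly on dim genes. Nuclear hormone receptors rose in 89 of 254 genes (35%) and fell in 5 (1.97%), with 40 above the soma reference.

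**Figure D3:**
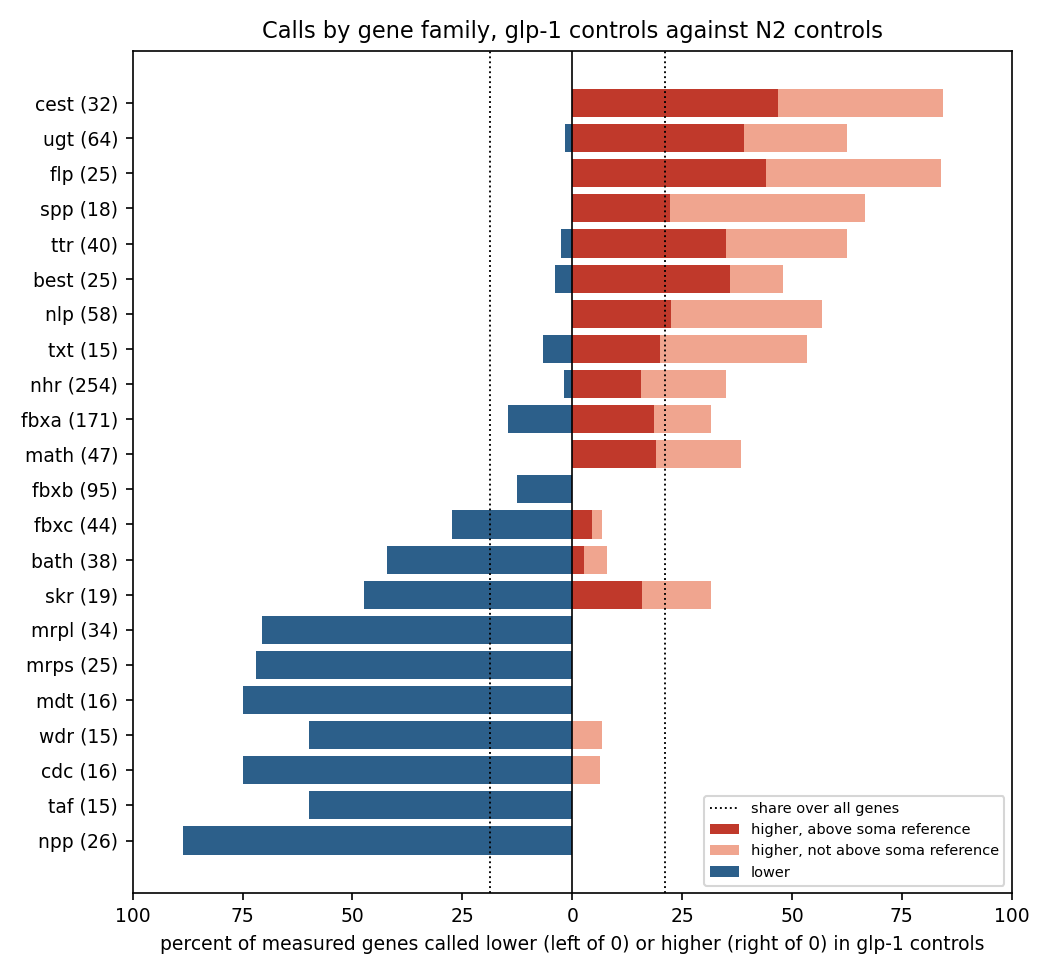
Percent of measured genes called higher (right of 0) or lower (left of 0) in glp-1 controls for 22 symbol families, with the number of genes in brackets: the 8 highest and 8 lowest of 113 families and 6 others named in the text. Dotted lines mark the shares over all genes, 21.1% higher and 18.6% lower, and the cest family, with 27 of 32 genes higher, lies opposite the npp family, with 23 of 26 genes lower.

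Several classes of general cell machinery fell. Of 26 nuclear pore genes 23 fell and 0 rose (median -1.67), and the list median was 8.70, 9.10, 8.37 and 8.22 in glp-1 controls and 10.29, 10.61, 10.04 and 10.29 in N2 controls. The nucleoporin gene npp-19 measured 9.29, 9.04, 9.04 and 9.02 in glp-1 controls, against 10.76, 11.02, 11.05 and 11.13 in N2 controls. Of 59 mitochondrial ribosomal protein genes 42 fell and 0 rose (median -1.02), with mrpl-18 down by 2.28 ± 0.31. Of 33 proteasome genes 24 fell and 0 rose (median -0.72), with rpt-3, for an ATPase of the regulatory particle, down by 0.95 ± 0.13. Of 33 aminoacyl-tRNA synthetase genes 16 fell and 0 rose (median -0.42), with the lysyl-tRNA synthetase gene kars-1 down by 1.25 ± 0.21. Among transcription factors of general use, 12 of 16 Mediator genes (mdt) and 9 of 15 TFIID genes (taf) fell and 0 rose, led by mdt-18 (2.31 ± 0.21) and taf-11.2 (4.18 ± 0.31).

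Of 75 cytosolic ribosomal protein genes 31 fell and 1 rose, with a median of -0.36, and that median turned to 0.40 when arrays were scaled to their 75th percentile. The list median was 12.12, 12.13, 12.33 and 12.12 in glp-1 controls and 12.56, 12.63, 12.66 and 12.70 in N2 controls, near the top of the scale. Of 43 oxidative phosphorylation genes 11 rose (25.6%, near the 21.1% of all genes) and 5 fell, with a median of 0.19, or -0.09 as deposited. Of 18 vacuolar ATPase genes 10 rose and 2 fell (55.6% rose, median 0.68), and of 44 genes of glycolysis, gluconeogenesis and the citric acid cycle 18 rose and 6 fell (40.9% rose, median 0.38). Of these 3 lists, 1 gene, in the last of them, stood above the soma reference.

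Closely related genes were compared in 15 listed sets of paralogues with 38 measured genes. Calls in opposite directions were found in 3 of the sets (elongation factor 1 alpha, cap-binding proteins and ATP synthase subunit b), calls in 1 direction only in 9, and no call in 3. The ribosomal protein gene rpl-11.1 measured 8.85, 9.58, 9.40 and 9.35 in glp-1 controls and 12.78, 12.99, 12.92 and 12.98 in N2 controls, a difference of -3.62 ± 0.17 (limma, adjusted p = 3.03e-12). Its paralogue rpl-11.2 measured 12.12, 12.20, 12.48 and 12.24 in glp-1 controls and 11.59, 10.94, 11.90 and 11.68 in N2 controls, a difference of 0.73 ± 0.36 that did not pass the test (limma, adjusted p = 0.119). It was called with 75th percentile scaling, with median centring and with the 8 control arrays alone. The pair encoding ribosomal protein L23A, chosen after its values were seen, had calls on both sides, rpl-23A.2 down by 1.15 ± 0.14 and rpl-23A.1 up by 0.87 ± 0.30, of which the fall was lost with 75th percentile scaling and the rise as deposited and when any 1 of 5 arrays was left out (N2 2007 replicate 2, N2 2008 replicate 2, glp-1 2007 replicates 1 and 2, and glp-1 2008 replicate 1). Of the genes for elongation factor 1 alpha, eef-1A.2 rose by 0.71 ± 0.27, and eef-1A.1 fell by 0.31 ± 0.10 but turned to 0.50 with 75th percentile scaling and to 0.03 with median centring. The rise of eef-1A.2 was not called in either year alone, as deposited, or when any 1 of 5 arrays was left out (glp-1 2007 replicates 1 and 2, N2 2007 replicate 2, and N2 2008 replicates 1 and 2).

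Among the cap-binding translation factors, ife-3 fell by 2.72 ± 0.25 and ife-1 by 1.52 ± 0.14, while ife-2 measured 10.16, 10.07, 10.17 and 10.07 in glp-1 controls and 8.78, 9.14, 8.80 and 8.97 in N2 controls. Subunit b of the mitochondrial ATP synthase has 2 genes on the array, and asb-1 fell by 2.08 ± 0.17 where asb-2 rose by 1.09 ± 0.21. The next pairs were also chosen after their values were seen. In the vacuolar proton pump, vha-18 measured 6.04, 6.37, 5.44 and 5.97 in glp-1 controls, against 11.48, 11.75, 11.16 and 11.32 in N2 controls, while vha-15, for the same subunit, rose by 1.17 ± 0.14 and the intestinal subunit gene vha-6 by 1.22 ± 0.21. In the citric acid cycle the succinyl-CoA ligase genes sucg-1 and sucl-1 differed by -1.61 ± 0.16 and 1.26 ± 0.18. They encode different subunits of the enzyme and are not alternative forms of the same subunit. The Y-box RNA-binding genes cey-2 and cey-3 fell by 5.35 ± 0.32 and 5.81 ± 0.35, where cey-1 and cey-4 differed by -0.22 ± 0.16 and -0.13 ± 0.14 and did not pass the test (limma, adjusted p = 0.328 and 0.520). The last 2 values turned positive with 75th percentile scaling and with median centring.

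Linker histones fell in all 4 genes examined, and by different amounts: hil-5 by 7.02 ± 0.43, hil-2 by 4.73 ± 0.30, his-24 by 2.04 ± 0.29 and hil-3 by 1.81 ± 0.44. The last 2 lie on the X chromosome. Beta-tubulin tbb-1 fell by 1.19 ± 0.19 and tbb-2 by 0.51 ± 0.13, of which the second turned to 0.22 with 75th percentile scaling. Paralogues this close can share probe sequence, and the supplied probe table does not say how far.

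**Figure D4:**
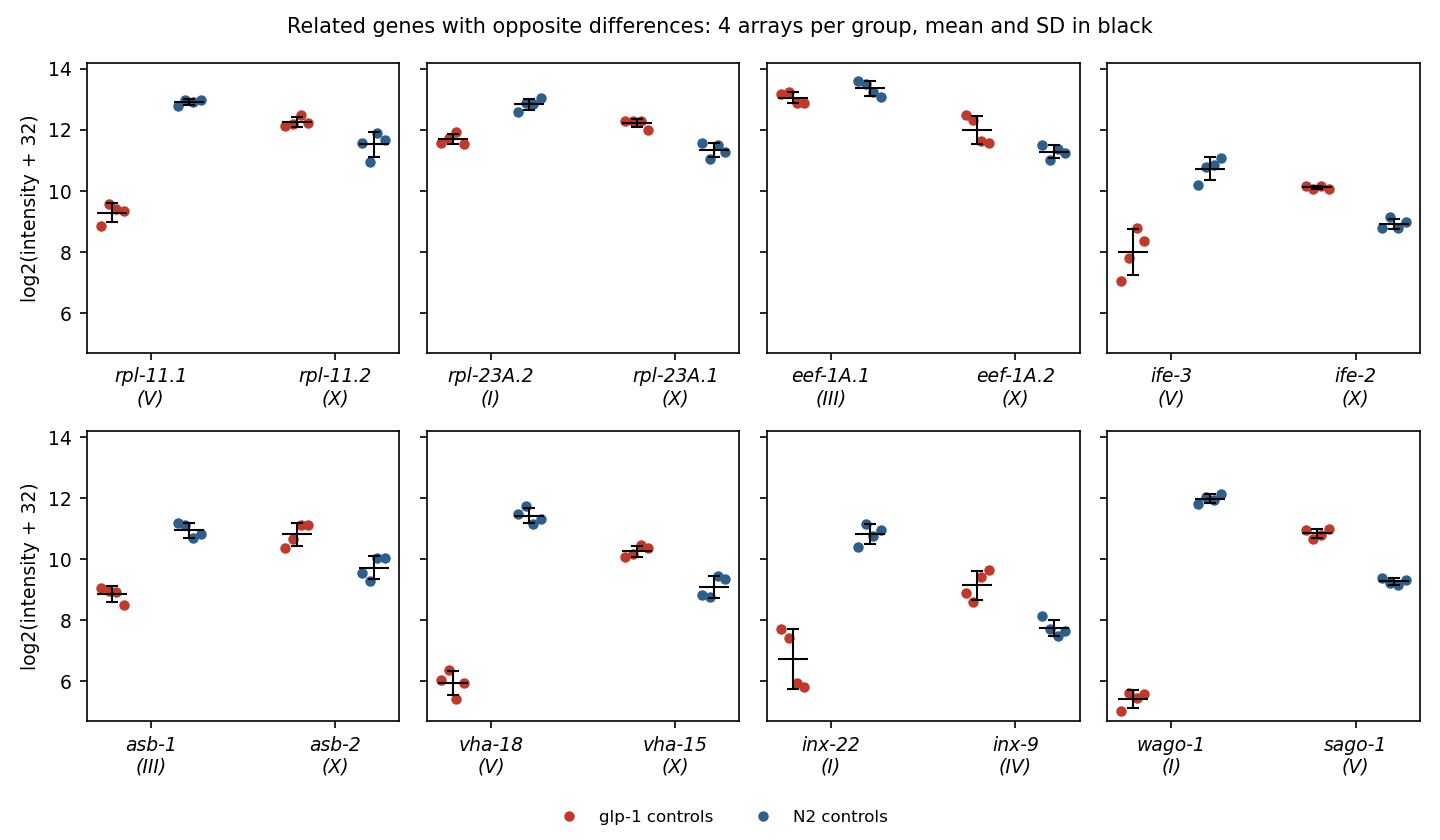
Level of 8 pairs of related genes, picked for their opposite signs, in glp-1 controls (red, left in each pair of groups) and N2 controls (blue, right), log2(intensity + 32), with 4 arrays per group as points, the mean and SD in black and the chromosome in brackets. In each pair the gene on the left is lower in glp-1 controls and the gene on the right is higher, by 0.73 without passing the test for rpl-11.2 and past the test for the other 7, while eef-1A.1 turned to 0.50 with 75th percentile scaling and to 0.03 with median centring.

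Among the members of the plotted pairs that rose, rpl-23A.1, eef-1A.2, ife-2, asb-2 and vha-15 lie on the X chromosome, and inx-9 and sago-1 lie on autosomes. In the germ line of C. elegans the X chromosome is known to be largely silent, so few germ line transcripts come from it. Among 2350 X-linked genes measured, 35.0% rose and 4.51% fell, against 18.9% and 20.9% of 14717 autosomal genes. Restricted to genes that averaged at least 7 over all 24 arrays, 60.9% of 1051 X-linked genes rose and 7.42% fell, with a median difference of 1.0. Of 6677 such autosomal genes 29.5% rose and 41.2% fell, with a median of -0.29. More of the 24 arrays were of N2 and xpa-1 animals than of glp-1 animals. A gene bright in those strains alone therefore passes this filter more easily than a gene bright in glp-1 alone, which favours falls. Falls beyond 4 on the log2 scale numbered 4 on the X chromosome and 297 on the autosomes. Among the autosomes the share of falls ran from 30.4% of detected genes on chromosome V to 49.8% on chromosome I. Without the brightness filter, 11.8% of X-linked genes stood above the soma reference, against 7.58% of autosomal genes and 9.75% of those on chromosome V. Among genes that averaged at least 7, the shares were 22.65% on the X chromosome and 13.99% on the autosomes. Chromosome V, at 23.99%, was above the X chromosome there.

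**Figure D5:**
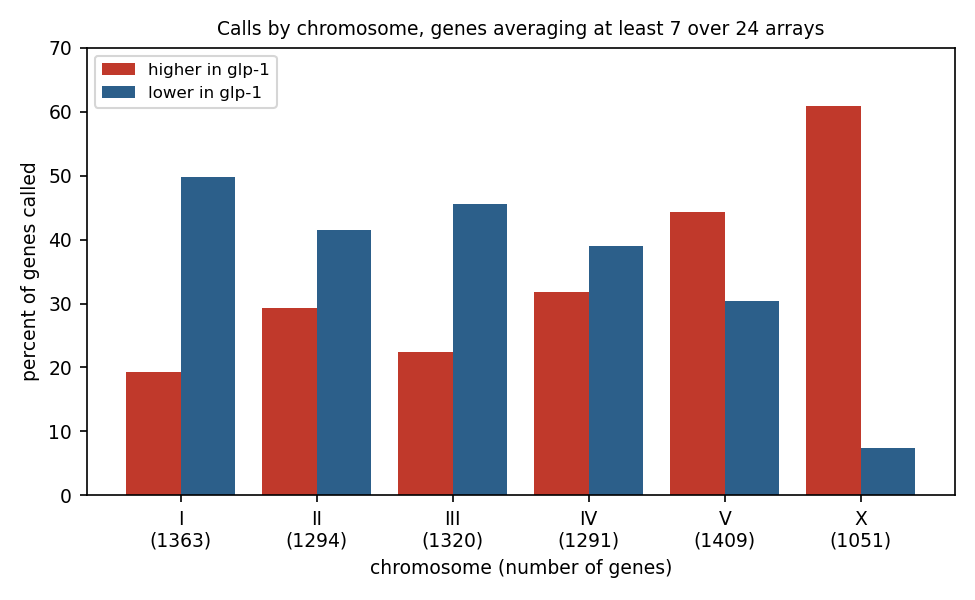
Percent of genes called higher (red) and lower (blue) in glp-1 controls on each chromosome, for genes that averaged at least 7 over all 24 arrays, with the number of genes under each chromosome. On the X chromosome 60.9% of genes were higher and 7.42% lower, and on chromosome I 19.3% were higher and 49.8% lower. The 24 arrays include more N2 and xpa-1 than glp-1 arrays, so the filter passes genes lower in glp-1 more easily than genes higher in it.

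The same contrast was available in arrays of other animals, the irradiated glp-1 and irradiated N2 samples, which received 50 J/m2 of UVC and share no array with the controls. Both contrasts came from 1 fit, with the same scaling, year term and estimate of spread per gene. The overlap of calls is therefore not an independent repeat. There 3746 genes rose (21.9%) and 3364 fell (19.7%). Of the genes that rose in controls 2946 also rose in irradiated animals, which is 81.6% of the control rises and 78.6% of the irradiated ones. Of the genes that fell 2873 also fell, which is 90.2% of the control falls and 85.4% of the irradiated ones. The direction was opposite and called in both for 1 gene that rose and 1 that fell in controls. In irradiated animals htp-3 differed by -5.33, ges-1 by 2.41, nlp-40 by 1.86, cest-13 by 3.02 and sago-1 by 1.93. For gld-1 the irradiated difference was -3.66 beside -5.63 in controls. Whether these 2 differ was not tested.

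The effect of the strain differed between the years for 221 genes (1.29%; limma interaction, 93 larger and 128 smaller in 2008), of which 126 were also called in the comparison over both years. The count depended on the scaling: it was 4497 with quantile normalization within each year and 4598 with median centring. In 93 of the 221 the difference had opposite signs in the 2 years. The gene F55G11.6, named by its locus, measured 10.91, 10.78, 5.87 and 6.38 in glp-1 controls and 5.65, 5.54, 5.38 and 5.65 in N2 controls, so its rise was large in 2007 and small in 2008, and over both years it was lost without any 1 of the 4 arrays of 2007. The opposite was seen for the collagen gene col-183, at 6.91, 6.80, 9.54 and 9.82 in glp-1 controls and 6.11, 5.31, 5.00 and 5.13 in N2 controls. The drebrin homologue dbn-1 measured 9.27, 9.47, 5.00 and 5.00 in glp-1 controls and 10.14, 10.05, 9.08 and 9.45 in N2 controls. The hedgehog-related gene wrt-10 was at 5.00 in all glp-1 arrays and measured 5.49, 5.00, 9.40 and 9.28 in N2 controls, and its fall over both years was lost without any 1 of the 4 arrays of 2008. Year, labelling kit and amount of RNA changed together and cannot be told apart.

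Other probe sets of a gene did not always give the same size of difference. The values above come from the brightest probe set, and 37 of the genes named had at least 1 other. In 11 of these another probe set had the opposite sign or a difference under 30% of the printed one. The others gave -0.78 for gld-1, -0.54 for lin-41, -0.30 for hil-3, -0.18 for nhr-23, 0.11 for dgat-2 and 0.28 for cey-4. With several others the range was -0.28 to 0.09 for daf-12, -0.08 to 1.68 for itr-1, -0.73 to 0.15 for ptr-2, -3.17 to 1.08 for lea-1 and -5.03 to 0.27 for tdc-1. The falls and rises printed for these 11 genes rest on the brightest probe set.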

How the data were processed

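Whole-animal RNA was measured on 24 one-channel Affymetrix arrays, 4 in each of 6 groups of strain and treatment, 2 per year. The deposited values are background-subtracted probe set intensities on a linear scale, with values below 0 and array medians that differ by up to 2.62 on the log2 scale. Biotin-labelled cRNA was hybridized, per the labels' protocols, and the summary, background and scaling methods were not given in the labels used here.

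The 22548 probe sets were quantile normalized over the 24 arrays, floored at 0 and taken as log2(value + 32), with 15.5% of normalized values at or below 0. Each was fitted in limma 3.58.1 (R 4.3.3) with a mean per group and year as a block, leaving 17 residual degrees of freedom, with 2.24 from the prior, and calls were made at a Benjamini-Hochberg adjusted p under 0.05 over all probe sets. The procedure was tested on simulated data. The number of arrays limits the precision. By the supplied platform annotation, which can be old, 20766 probe sets name 1 gene, 887 several and 895 none. A gene took its sole-gene probe set of highest mean over the 24 arrays, giving 17118 genes. On the soma-centred scale, the median of the 72 reference genes was subtracted from each array.

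The samples compared and the gene lists were chosen with earlier results of these data known, and the lists were compiled by hand for this work. Genes eligible for naming were the 15 largest rises and 15 largest falls without overlap within a year and with a higher group of at least 8, up to 4 called members of each list by smallest p with any 5 or fewer called against the majority, the listed paralogues, glp-1 and cell type markers, the 5 clearest year differences in each direction, and the leading members of the 8 highest and 8 lowest families. The text draws on these, and some genes outside them were chosen after their values were seen. The deviations of same-numbered replicates correlated in 2008 (r = 0.26, across probe sets) but not in 2007 (r = -0.03), so the numbers were not treated as pairs. Alternatives covered scaling, pseudocount, dim probe sets, variance model, array weights, year, threshold, reference genes and left-out arrays. Promoter motifs were not analysed here.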

Additional observations from a re-analysis of the deposited data

Results flagged for a closer look

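Among the genes named, 6 had a strain effect that differed between the years (limma interaction). The 2008 difference minus the 2007 difference was -4.63 for F55G11.6, -4.10 for wrt-10, -3.54 for dbn-1, -1.77 for ptr-2, -1.21 for air-2 and 3.47 for col-183. For air-2 and ptr-2 the fall was deeper in 2008.

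In 23 of 275 groups of 4 arrays (8.36%), a single array stood far from the other 3 for its group's range. The chance rate of about 1 in 20 groups does not hold where arrays are tied at the lowest possible value. Whether the share exceeds chance therefore cannot be decided. In glp-1 controls the 2008 replicate 2 array accounted for 8 of these: cbd-1 (6.81), cey-4 (12.13), dpy-7 (7.19), hil-3 (7.50), htp-3 (5.19), oma-1 (5.69), oma-2 (5.65) and rpl-23A.1 (12.02). For dpy-7, htp-3 and oma-2 the other 3 glp-1 arrays were at the lowest possible value, and for cbd-1 at or next to it. Any signal in the remaining array was then marked, so part of the tally of 8 reflects the floor. The glp-1 2007 replicate 1 array stood apart for npp-19 (9.29) and xnd-1 (5.29), 2007 replicate 2 for hil-2 (5.34), ins-7 (9.57) and lbp-9 (6.23), and 2008 replicate 1 for asp-8 (9.25) and gst-29 (9.65). In N2 controls the 2007 replicate 1 array accounted for 6: cest-13 (7.10), cey-4 (11.82), cpg-2 (13.26), glp-1 (10.40), htp-3 (10.19) and irg-5 (5.76). The N2 2008 replicate 1 array stood apart for hil-2 (10.40) and lin-26 (11.27).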

How the results depend on the processing

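Relative to the counts over both years (3612 higher, 3185 lower, 1395 above the soma reference), the arrays of 2007 alone gave 1629, 1890 and 261, and those of 2008 alone 4600, 3868 and 2053. Values as deposited gave 1638 higher. The count above the soma reference was 2563 with array weights, 863 without the year term and 741 at an adjusted p of 0.01, and 1265, 1640 or 1883 with muscle, neuron or 5 somatic lists as reference. Leaving out each control array in turn gave 3191 to 3453 higher, 2956 to 3144 lower and 1027 to 1363 above the reference. The count of 221 genes that differed between years became 4497 with quantile normalization within each year and 4598 with median centring. With the replicate block, which the replicate deviations bore out as a pairing in 2008 only, the counts were 3595 higher, 3166 lower, 1460 above the reference and 249 for the year difference, and of the genes named only eef-1A.2 lost its call. The median of all genes, 0.07, became -0.08 as deposited, 0.17 when scaled to the 75th percentile and 0.32 when centred on medians. Signs turned for cey-1 (0.68 with 75th percentile scaling, 0.22 with median centring), cey-4 (0.74 and 0.27), eef-1A.1 (0.50 and 0.032) and tbb-2 (0.22 with 75th percentile scaling). Of 139 genes named, 109 kept direction and call under every alternative. Over 3197 gene and alternative pairs, 88 lost the call, 6 gained it and 7 turned. The causes were not tested. Probe sets at the floor limit the depth of the falls, and values near the top of the scale may be compressed.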

Other observations

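Over all genes 21.1% rose and 18.6% fell. Of 128 cuticle collagen genes 25 rose (19.5%) and 6 fell (4.69%), with a median of 0.36, and 7 stood above the soma reference. Of 30 short-chain dehydrogenase genes 13 rose (43.3%) and 2 fell (median 0.50), and of 54 ground-like and hedgehog-related genes 6 rose (11%) and 3 fell (median 0.00). Of 43 histone and HMG genes 9 rose (20.9%) and 15 fell (34.9%), with a median of -0.15 and quartiles of -1.87 and 0.40.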
